A study of Homo sapiens with 6 samples.

Results

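NEAT1, MALAT1 and 5 genes of proteins found in paraspeckles were followed in RNA sequencing of U937, an established human cell line of the monocytic lineage. They were taken by symbol, as the rows of the deposited expression table named NEAT1, MALAT1, SFPQ, NONO, PSPC1, HNRNPK or RBM14, and made up 7 of its 58735 genes, with 1 row each. The study compared 3 libraries labelled shENO1, read here as cells carrying a short hairpin RNA against ENO1, with 3 libraries of wild-type U937 cells. The labels name no other treatment and no control hairpin, so that a difference between them cannot be told apart from an effect of hairpin delivery or selection. The labels do not say whether the shENO1 cells were 1 clone, or whether the libraries of a group were separate cultures. The p-values below are therefore set against a spread between libraries that may be purely technical.

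Paraspeckles are nuclear bodies built on a long noncoding RNA, NEAT1. Its short and long forms start together, and the long form, which has no poly(A) tail, carries the body. The related DBHS proteins SFPQ, NONO and PSPC1 coat NEAT1 and one another, while HNRNPK favours the long form and RBM14 takes part in assembly. MALAT1, encoded close by, is an abundant RNA that sits in nuclear speckles, the neighbouring bodies that store splicing factors. Both RNAs are known for their response to stress and, in myeloid cells, to inflammatory signals.

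The libraries held 14845420 to 17499636 reads in genes in shENO1 cells and 14216739 to 15886584 in wild-type cells. ENO1, which encodes the glycolytic enzyme alpha-enolase, was at 91.5, 82.7 and 111 FPKM in shENO1 cells, against 526, 545 and 561 FPKM in wild-type cells, where FPKM counts fragments per kilobase of gene length, scaled to the depth of the library. All 13 myeloid markers were detected in every library, although MPO and CD68 were close to 0. Their sums were 833 to 1204 FPKM in shENO1 cells and 659 to 755 FPKM in wild-type cells. The largest part of each sum was LYZ, at 533, 513 and 855 FPKM in shENO1 libraries 1 to 3, against 400, 441 and 311 FPKM in wild-type libraries 1 to 3 (limma adjusted p = 0.107). Of the 11 tested, FCGR1A and CSF1R were called higher (18.2%, against 7.86% of all genes) and 0 lower. The 11 genes are too few to set against that share. CSF1R averaged 0.941 FPKM in wild-type cells, and passed the filter of 1 FPKM only through its shENO1 values. The 15 markers of other cell types, among them lymphoid, epithelial, stromal and erythroid ones, summed to 3.03 to 3.60 FPKM in shENO1 cells and 3.21 to 3.75 FPKM in wild-type cells, and CD3D, CD3E, MS4A1, KRT5, HBB and GATA1 were at 0 throughout, where a count of 0 allows up to 3 reads per library. Mitochondrial transcripts took 6.60 ± 0.856% of reads in shENO1 cells and 4.02 ± 1.01% in wild-type cells (SD, n = 3 each), with wild-type replicate 3 at 5.19%. Of 12809 genes that averaged 1 FPKM or more, 1007 (7.86%) were higher and 828 (6.46%) lower in shENO1 cells at an adjusted p under 0.05 (limma on log2(FPKM + 1), Benjamini-Hochberg over all genes tested). With libraries scaled on nuclear genes alone, 1259 were higher and 662 lower, so that increases made up 65.5% of the calls, against 54.9% as reported. NEAT1 and MALAT1 were called lower under that scaling too.

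The 2 noncoding RNAs fell to about the same fraction of their wild-type level, and the genes of the DBHS proteins did not pass the test. NEAT1 was 2.79-fold and MALAT1 2.86-fold lower in shENO1 cells. RBM14 and NONO were lower in each shENO1 library than in any wild-type library, by smaller amounts that missed the threshold. SFPQ, PSPC1 and HNRNPK overlapped between the groups. In all, 2 of the 7 genes were called lower, where 6.46% of all tested genes were, and 0 were called higher, where 7.86% were (0 also at an unadjusted p under 0.05). The 7 genes are too few to set against these shares. By limma-voom on recovered reads, RBM14 was called lower as well, where 7.24% of all genes were lower and 10.9% higher, and again 0 of the 7 were higher. With no filter on FPKM, MALAT1 alone was called, where 1.21% of 31500 genes were lower and 1.41% higher.

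**Figure D1:**
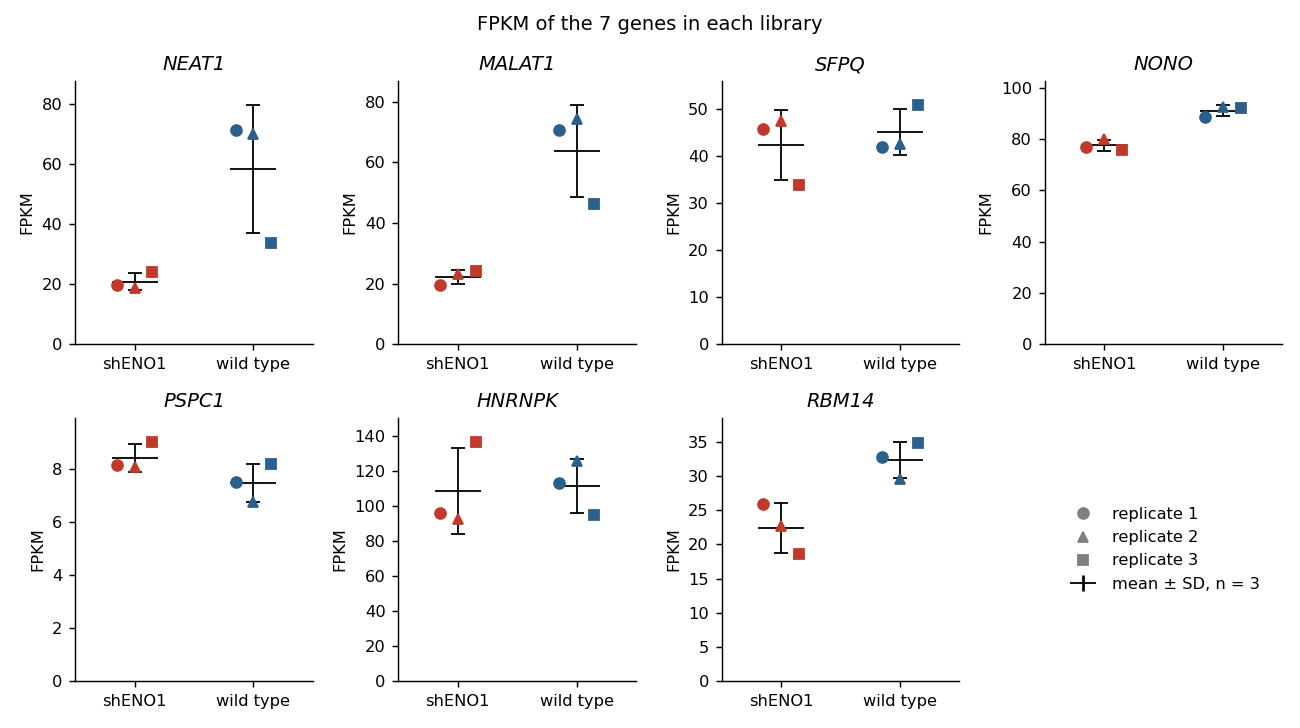
Level of each of the 7 genes in FPKM (vertical axes, each from 0) in the shENO1 libraries (red) and the wild-type libraries (blue). Symbols mark the replicate number, and the bars give the mean and SD of 3 libraries. NEAT1 and MALAT1 are at 18.8 to 24.1 FPKM in all shENO1 libraries, and wild-type replicate 3 is the lowest of the wild-type libraries for both.

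NEAT1 (ENSG00000245532, chromosome 11, 65422774 to 65445540, plus strand, GRCh38, a lincRNA gene) was measured at 19.7, 18.8 and 24.1 FPKM in shENO1 libraries 1 to 3, against 71.3, 70.0 and 33.7 FPKM in wild-type libraries 1 to 3. Every shENO1 library lay below every wild-type library, but the wild-type libraries were far apart, and replicate 3 was nearer to the shENO1 libraries than to the other wild-type libraries. The means were 20.9 ± 2.85 FPKM in shENO1 cells and 58.3 ± 21.3 FPKM in wild-type cells (SD, n = 3 each), so that 35.8% of the wild-type level was left. In RNA of whole cultures, fewer cells with the RNA and less of it per cell cannot be told apart. Behind these values were 6516 to 9264 reads per shENO1 library and 10627 to 24918 reads per wild-type library. The log2 fold change of FPKM + 1 was -1.37 (SE 0.29, 95% interval -2.07 to -0.67, limma adjusted p = 0.0293). The call rested on single libraries: the adjusted p from limma was 0.0978 when shENO1 replicate 1 was left out, 0.0809 for shENO1 replicate 2, 0.104 for wild-type replicate 1 and 0.0968 for wild-type replicate 2, with NEAT1 lower in shENO1 cells each time. In the order of these settings, 266, 533, 134 and 159 of all tested genes were called lower, against 828 with all libraries. The limma adjusted p of NEAT1 was 0.0866 with no filter on FPKM. An exact two-sided permutation test of the same values gave p = 0.1, which is as low as 3 libraries a group can reach.

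MALAT1 (ENSG00000251562, chromosome 11, 65497688 to 65506516, plus strand, a lincRNA gene) was measured at 19.7, 23.1 and 24.0 FPKM in shENO1 libraries 1 to 3, against 70.7, 74.3 and 46.3 FPKM in wild-type libraries 1 to 3. The pattern was that of NEAT1, with no overlap between the groups and with wild-type replicate 3 the lowest of its group. The means were 22.3 ± 2.30 FPKM in shENO1 cells and 63.7 ± 15.2 FPKM in wild-type cells (SD, n = 3 each), on 2704 to 3580 reads per shENO1 library and 5664 to 10253 per wild-type library. The log2 fold change was -1.45 (SE 0.19, 95% interval -1.91 to -0.99, limma adjusted p = 0.00888), and the call held without each library in turn, with log2 fold changes between -1.66 and -1.33. The exact two-sided permutation p was again 0.1. Among the 12809 genes tested, MALAT1 had the 148th and NEAT1 the 174th lowest log2 fold change, and 3.01% of these genes had a log2 fold change of -1 or lower.

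The proportion of NEAT1 to MALAT1 varied as much within the groups as between them. The ratio of their FPKM values was 0.999, 0.815 and 1.0 in shENO1 libraries 1 to 3, and 1.01, 0.942 and 0.728 in wild-type libraries 1 to 3. The groups overlapped, with means of 0.939 ± 0.108 in shENO1 cells and 0.893 ± 0.147 in wild-type cells (SD, n = 3 each). The log2 difference was 0.08 (exact two-sided permutation p = 0.7, also 0.7 when adjusted over the 2 ratios tested), and it was -0.061 without wild-type replicate 3. A p of this size does not show that the ratio was the same.

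A feature that both RNAs share, and that sets them apart from most long RNAs, is the end of the mature transcript. It is cut by RNase P in front of a small tRNA-like RNA, has no poly(A) tail, and is held by a triple helix in which U-rich motifs clamp an A-rich tract. The last 130 bases before the cut are shown because this is the stretch that the 2 genes have in common, read from GENCODE release 29 transcripts on GRCh38 (plus strand, written with T). Capitals mark every run of at least 8 bases found in both, without overlap, which came to 3 runs. The first sequence is the end of the single-exon transcript NEAT1-202 (22743 bases, 44.1% GC), at chr11:65445411-65445540. The second lies inside the single-exon annotation MALAT1-202 (8708 bases, 40.3% GC), at chr11:65505987-65506116. The third is the tRNA-like RNA annotated as RF01684 that starts on the next base, at chr11:65506117-65506173.
NEAT1-202: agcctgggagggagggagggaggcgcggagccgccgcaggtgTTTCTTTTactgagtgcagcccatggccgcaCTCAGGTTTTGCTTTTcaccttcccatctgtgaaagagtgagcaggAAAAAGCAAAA
MALAT1-202: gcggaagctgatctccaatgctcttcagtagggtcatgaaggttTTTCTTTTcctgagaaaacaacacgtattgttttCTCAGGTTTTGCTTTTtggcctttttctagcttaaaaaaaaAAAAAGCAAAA
RF01684: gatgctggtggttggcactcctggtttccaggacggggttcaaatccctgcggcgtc

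The shared runs were TTTCTTTT, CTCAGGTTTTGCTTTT and AAAAAGCAAAA. Each occurred once in each stretch and in the same order, so that 2 U-rich runs precede an A-rich run that ends both stretches. In the last 130 bases of 200322 annotated transcripts, searched on the transcribed strand, TTTCTTTT was found in 1.60% and AAAAAGCAAAA in 0.0569%. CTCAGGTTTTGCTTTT, and all 3 runs together, were found in 1 transcript, NEAT1-202 itself, since the annotation of MALAT1-202 runs on past the cut. The runs were taken from the 2 stretches shown, so this hit was fixed in advance and is no test of how rare they are. In NEAT1 too, an RF01684 entry starts on the base after the sequence shown, and both entries were listed at 0 in all 6 libraries. The gene-level values cannot separate the 8 annotated NEAT1 transcripts or the 17 of MALAT1, so the short and long forms of NEAT1 are summed in the FPKM given here.

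None of the tested genes around the pair was called, in a count too small to set against the share over all genes. NEAT1 and MALAT1 lie 52.1 kb apart. Within 200 kb of them, 36 other genes are annotated in the table, of which 13 were tested and 0 passed the test in either direction, against 7.86% higher and 6.46% lower over all genes (limma). At an unadjusted p under 0.05, 4 were higher and 0 lower, against 16.3% and 15.4% of all genes, and limma-voom called 1 higher and 0 lower. The median log2 fold change of these 13 genes was 0.09, against -0.02 over all genes tested. FRMD8, the nearest tested gene before NEAT1, had 6.50 ± 0.863 FPKM in shENO1 cells and 6.08 ± 0.918 FPKM in wild-type cells (limma adjusted p = 0.711). RELA, the NF-kB subunit at the far end of the region, was at 11.4 ± 0.765 FPKM in shENO1 cells and 12.8 ± 0.434 FPKM in wild-type cells (limma adjusted p = 0.247). The 4 small RNA genes annotated inside NEAT1, MIR612 among them, and the 3 genes that overlap MALAT1 were all listed at 0, so no second row took reads from the pair, and the strand setting of the authors' counting is not given in the sources used here.

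**Figure D2:**
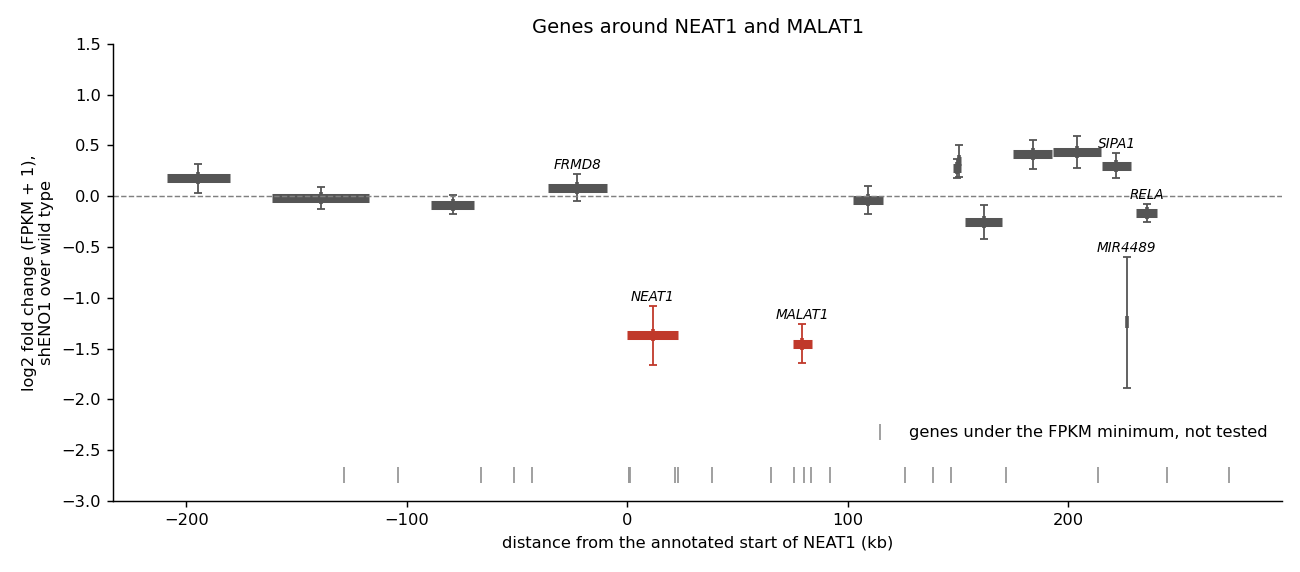
Log2 fold change of FPKM + 1, shENO1 over wild type (vertical axis), of the tested genes around NEAT1 and MALAT1 against the distance from the start of NEAT1 in kb (horizontal axis). Horizontal bars span each gene and vertical bars give the SE, with names on the genes discussed; ticks at the bottom are genes under 1 FPKM. NEAT1 and MALAT1 (red) are at -1.37 and -1.45, and of the 13 other tested genes none was called, with MIR4489, a microRNA gene inside SIPA1, carrying the widest error.

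NEAT1 and MALAT1 took a smaller part of the lincRNA reads in shENO1 cells, where lincRNA is the class of long intergenic noncoding genes. Together they had 13.4%, 13.5% and 16.1% of these reads in shENO1 libraries 1 to 3, against 32.8%, 33.4% and 22.4% in wild-type libraries 1 to 3. The groups did not overlap. All other lincRNA genes together took 0.402 ± 0.0175% of the reads in genes in shENO1 cells and 0.435 ± 0.0364% in wild-type cells (SD, n = 3 each), and here the groups overlapped. By reads, NEAT1 ranked 2, 3 and 2 among lincRNA genes in shENO1 libraries 1 to 3 and 1 in every wild-type library, and MALAT1 ranked 5 in every shENO1 library and 4 in every wild-type library.

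Among 337 tested lincRNA genes, MALAT1 had the 5th and NEAT1 the 6th lowest log2 fold change; 16 were called higher and 26 lower, and the median was -0.08. Of the 61 with a mean of at least 5 FPKM, 7 were called higher and 10 lower. Values of other gene classes are set beside these. Of 164 tested sense-intronic genes, 1 was called higher and 24 lower with a median log2 fold change of -0.36, and of 598 antisense genes, 15 were called higher and 80 lower with a median of -0.27. Of 10032 protein-coding genes, 954 were called higher and 547 lower with a median of 0.02. Sense-intronic genes took 0.0567 ± 0.00858% of reads in shENO1 cells and 0.0776 ± 0.00686% in wild-type cells (SD, n = 3 each). The part of these classes in the values of NEAT1 and MALAT1 was not tested.

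**Figure D3:**
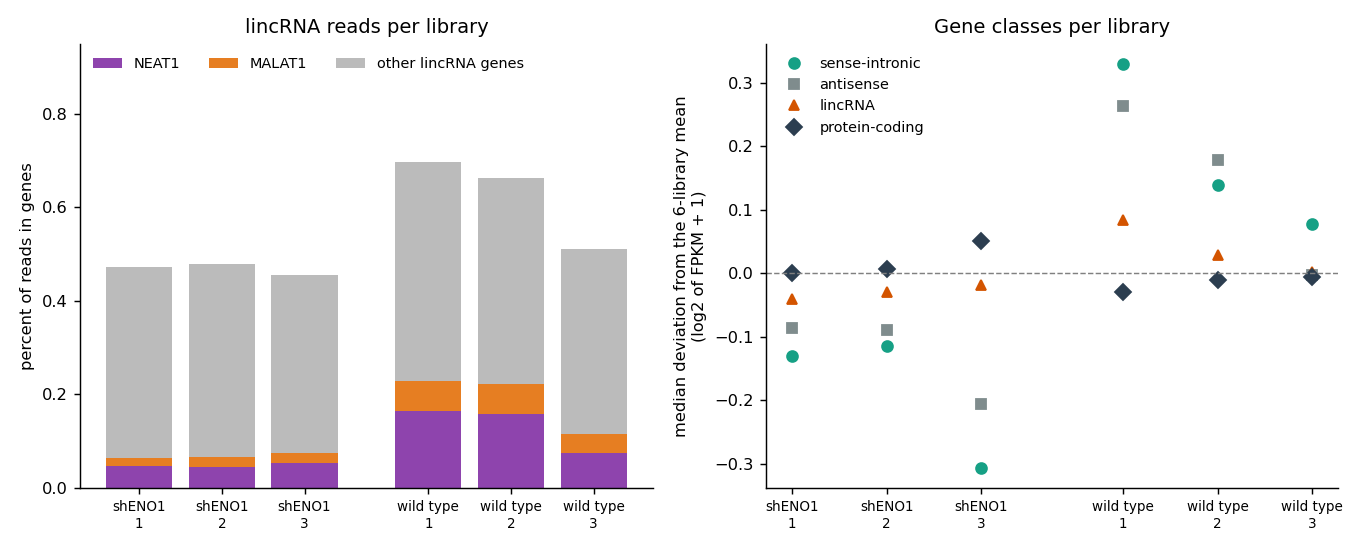
Left, percent of all reads in genes taken by NEAT1, MALAT1 and the other lincRNA genes (stacked bars from 0) in each library. Right, median deviation of 4 gene classes from their 6-library mean, in log2 of FPKM + 1. Both noncoding genes take less in every shENO1 library than in any wild-type library, and the sense-intronic and antisense medians are below 0 in all shENO1 libraries.

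SFPQ, NONO and PSPC1 encode the DBHS proteins, which pair with one another through a shared coiled coil. SFPQ (ENSG00000116560, chromosome 1, 35176378 to 35193148, minus strand) was at 45.8, 47.5 and 34.0 FPKM in shENO1 libraries 1 to 3, against 41.9, 42.7 and 50.9 FPKM in wild-type libraries 1 to 3. The groups overlapped, and replicate 3 was the lowest shENO1 library and the highest wild-type library. The log2 fold change was -0.10 (SE 0.16, 95% interval -0.47 to 0.28, limma adjusted p = 0.713), and it was 0.051 without shENO1 replicate 3.

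NONO (ENSG00000147140, chromosome X, 71283192 to 71301168, plus strand) was at 77.1, 79.9 and 75.6 FPKM in shENO1 libraries 1 to 3, against 88.6, 92.7 and 92.1 FPKM in wild-type libraries 1 to 3. The groups did not overlap and the libraries within each were close, with means of 77.5 ± 2.18 FPKM in shENO1 cells and 91.1 ± 2.18 FPKM in wild-type cells (SD, n = 3 each). The log2 fold change was -0.23 (SE 0.09, 95% interval -0.44 to -0.02), which did not pass the adjustment over all genes (limma adjusted p = 0.133).

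PSPC1 (ENSG00000121390, chromosome 13, 19674752 to 19783019, minus strand) had the lowest level of the 7 genes, at 8.15, 8.04 and 9.01 FPKM in shENO1 libraries 1 to 3 and 7.49, 6.73 and 8.17 FPKM in wild-type libraries 1 to 3. Its groups overlapped, and its log2 fold change was 0.15 (SE 0.10, 95% interval -0.08 to 0.39, limma adjusted p = 0.332).

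HNRNPK and RBM14 act on NEAT1 in different ways. HNRNPK (ENSG00000165119, chromosome 9, 83968083 to 83980616, minus strand), which hinders use of the early poly(A) site that gives the short form, was at 96.0, 92.6 and 137 FPKM in shENO1 libraries 1 to 3, against 113, 126 and 95.1 FPKM in wild-type libraries 1 to 3. Replicate 3 was the highest shENO1 library and the lowest wild-type library. The log2 fold change was -0.05 (SE 0.19, 95% interval -0.50 to 0.40, limma adjusted p = 0.882). Without both replicates labelled 3 it was -0.34 with a limma adjusted p of 0.0477, and with quantile normalisation it turned to 0.083. Leaving those replicates out cannot separate the groups from a pattern of library deviations that is described in the last section. In that setting 1649 of all genes were called higher and 2033 lower.

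RBM14 (ENSG00000239306, chromosome 11, 66616582 to 66627347, plus strand), a protein with a prion-like domain that paraspeckle assembly needs, was at 25.9, 22.7 and 18.5 FPKM in shENO1 libraries 1 to 3, against 32.8, 29.5 and 34.9 FPKM in wild-type libraries 1 to 3. The groups did not overlap, with means of 22.4 ± 3.67 FPKM in shENO1 cells and 32.4 ± 2.68 FPKM in wild-type cells (SD, n = 3 each). The log2 fold change was -0.52 (SE 0.14, 95% interval -0.86 to -0.19), just outside the threshold (limma adjusted p = 0.0514). The adjusted p was 0.0434 when only genes averaging 5 FPKM or more were tested, and 0.0385 with limma-voom on recovered reads. The readthrough gene RBM14-RBM4, which shares exons with RBM14, was at 0.301 ± 0.0218 FPKM in shENO1 cells and 0.567 ± 0.0736 FPKM in wild-type cells, under the minimum for a test.

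The groups thus failed to overlap for 4 of the 7 genes, each time with shENO1 lower, where 37.5% of all tested genes did not overlap and 17.9% did so with shENO1 lower. The exact two-sided permutation p was 0.1 for these 4 genes, 0.8 for SFPQ, 0.3 for PSPC1 and 0.9 for HNRNPK. Copies and overlapping genes could share reads with the protein genes. Of those with a mean of at least 1 FPKM, the NONO copy NONOP2 was at 5.63 ± 2.28 FPKM in shENO1 cells and 5.95 ± 1.16 FPKM in wild-type cells. The HNRNPK copy HNRNPKP4 was at 3.72 ± 0.643 FPKM in shENO1 cells and 4.69 ± 0.103 FPKM in wild-type cells, and the antisense gene PSPC1-AS2 at 1.82 ± 1.62 FPKM in shENO1 cells and 2.92 ± 0.125 FPKM in wild-type cells. None of these 3 passed the test (limma adjusted p = 0.805, 0.173 and 0.286). Since the strand setting is not known, reads of PSPC1 and PSPC1-AS2 cannot be told apart where they overlap.

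**Figure D4:**
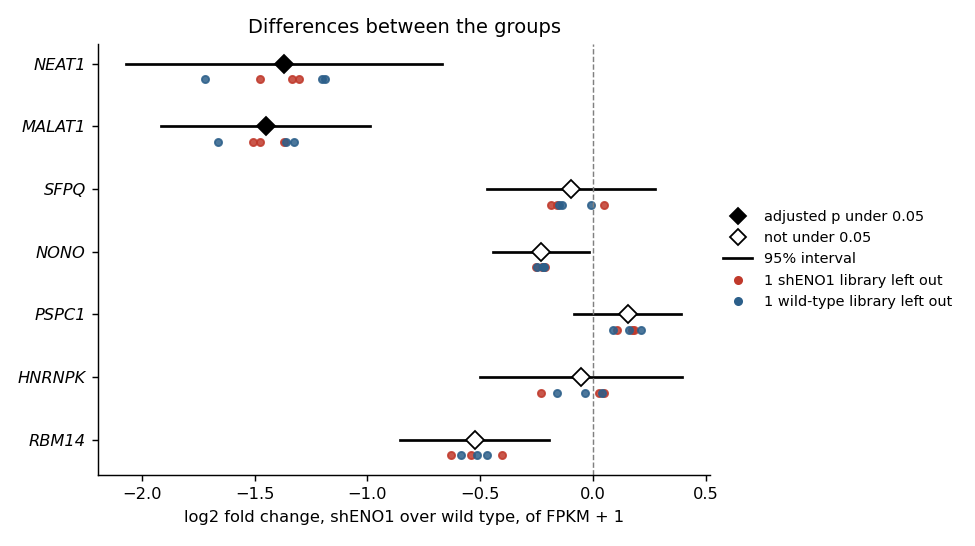
Log2 fold change of FPKM + 1, shENO1 over wild type (horizontal axis), of the 7 genes. Diamonds give the value over all 6 libraries, filled where the limma adjusted p is under 0.05, lines the 95% interval, and small points the value with 1 library left out. The points of NEAT1 and MALAT1 stay below -1, and those of SFPQ and HNRNPK lie on both sides of 0.

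By group means, NEAT1 stood lower among its protein partners in shENO1 cells, but replicate 3 did not follow this order. There the order by mean FPKM was HNRNPK, NONO, SFPQ, RBM14, MALAT1, NEAT1 and PSPC1, and the ranges of RBM14, MALAT1 and NEAT1 overlapped. In wild-type cells it was HNRNPK, NONO, MALAT1, NEAT1, SFPQ, RBM14 and PSPC1, and the ranges of MALAT1, NEAT1 and SFPQ overlapped. The range of NEAT1 also overlapped that of RBM14 there. In wild-type replicate 3, NEAT1 (33.7 FPKM) was below SFPQ (50.9 FPKM) and RBM14 (34.9 FPKM). In shENO1 replicate 3, NEAT1 (24.1 FPKM) was above RBM14 (18.5 FPKM). NEAT1 per summed FPKM of SFPQ, NONO and PSPC1 was 0.150, 0.139 and 0.203 in shENO1 libraries 1 to 3, against 0.517, 0.493 and 0.223 in wild-type libraries 1 to 3. The shENO1 values were all below the wild-type values, though shENO1 replicate 3 and wild-type replicate 3 came close. The log2 difference was -1.25 (exact two-sided permutation p = 0.1, the smallest possible, and 0.2 when adjusted over the 2 ratios tested). Among the DBHS genes themselves, PSPC1 per NONO was 0.109 ± 0.00956 in shENO1 cells and 0.0819 ± 0.00833 in wild-type cells without overlap, and SFPQ per NONO was 0.546 ± 0.0839 in shENO1 cells and 0.495 ± 0.0501 in wild-type cells with overlap (SD, n = 3 each). These last 2 ratios were chosen after the values had been seen and carry no test.

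Among 40 other proteins reported at paraspeckles, 36 were tested, 2 were called higher and 2 lower, and the median log2 fold change was -0.15. At 5.56% in each direction these shares were close to the 7.86% and 6.46% of all genes. HNRNPH1, a splicing regulator, fell to 69.4, 78.2 and 85.5 FPKM in shENO1 libraries 1 to 3, against 127, 129 and 100.5 FPKM in wild-type libraries 1 to 3 (log2 fold change -0.60, limma adjusted p = 0.0371). MATR3, a nuclear matrix RNA-binding protein, was also called lower (-0.58, limma adjusted p = 0.0403), but the table holds 2 overlapping rows of that symbol and the one used was at 1.01 ± 0.217 FPKM in shENO1 cells and 1.99 ± 0.0875 FPKM in wild-type cells, so its value is uncertain. SMARCA4, the ATPase of the SWI/SNF complex, rose by 0.47 on the log2 scale (SE 0.09, limma adjusted p = 0.0237), and the cleavage factor gene CPSF7 rose by 0.38 on the log2 scale (limma adjusted p = 0.0229). HNRNPA1, the most abundant of the list and uncertain because of its many near-identical copies in the genome, was at 142 ± 57.3 FPKM in shENO1 cells and 202 ± 43.3 FPKM in wild-type cells without passing the test (limma adjusted p = 0.254). The count of lower genes was 0 without shENO1 replicate 1, shENO1 replicate 2, wild-type replicate 1 or wild-type replicate 2, and the count of higher genes was 0 without shENO1 replicate 1, wild-type replicate 1 or wild-type replicate 2. Over all genes, 266, 533, 134 and 159 were called lower in the first settings, against 828 with all libraries. In the last settings 288, 147 and 214 were called higher, against 1007.

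In nuclear speckles, where MALAT1 sits, 3 of 25 tested protein genes were lower (12%, against 6.46% of all genes) and 0 higher (1 at an unadjusted p under 0.05 and 1 by limma-voom), with a median log2 fold change of -0.06. CLK1, a kinase that phosphorylates SR splicing factors and releases them from speckles, was at 16.3, 19.7 and 19.1 FPKM in shENO1 libraries 1 to 3, against 47.8, 49.4 and 49.3 FPKM in wild-type libraries 1 to 3. The gap between the groups was wide beside the spread within them, and unlike NEAT1 and MALAT1, CLK1 did not have its lowest wild-type value in replicate 3. Its log2 fold change of -1.37 (SE 0.10, limma adjusted p = 0.00287) passed the test without each library in turn. SRSF5, an SR splicing factor, and SRRM1, a splicing coactivator, fell by 0.80 and 0.66 on the log2 scale (limma adjusted p = 0.0338 and 0.0158). The speckle scaffold gene SRRM2 and the spliceosome gene SF3B1, the most abundant of the list, had adjusted p-values of 0.717 and 0.753 from limma. The count of lower genes was 1 without shENO1 replicate 1, wild-type replicate 1 or wild-type replicate 2. Over all genes, 266, 134 and 159 were called lower in these settings, against 828 with all libraries.

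Genes that act on the 3′ ends of NEAT1 and MALAT1 were called higher more often than lower. Of 26 tested genes, which cover RNase P, RNase Z, the cleavage and polyadenylation factors and nuclear decay, 7 were called higher (26.9%, against 7.86% of all genes) and 0 lower (1 at an unadjusted p under 0.05 and 0 by limma-voom), and 23 had a log2 fold change above 0, with a median of 0.30. RPP25, an RNA-binding subunit of RNase P, was at 10.4, 7.72 and 9.55 FPKM in shENO1 libraries 1 to 3, against 3.57, 4.19 and 4.76 FPKM in wild-type libraries 1 to 3 (log2 fold change 0.98, limma adjusted p = 0.0102). Its paralogue RPP25L was at 13.5, 9.40 and 15.8 FPKM in shENO1 libraries 1 to 3, against 6.31, 5.80 and 4.69 FPKM in wild-type libraries 1 to 3 (1.06, limma adjusted p = 0.0192). Neither gene overlapped between the groups. The RNase P scaffold gene POP1 rose by 0.59 from a low level (limma adjusted p = 0.0341). POP1 averaged 0.825 FPKM in wild-type cells, and passed the filter only through its shENO1 values. CPSF3, the endonuclease that cuts pre-mRNA before the poly(A) tail is added, rose to 24.6 ± 1.45 FPKM in shENO1 cells, against 16.1 ± 1.95 FPKM in wild-type cells (0.59, limma adjusted p = 0.0209). The other genes called were the RNase P subunit gene POP4, the RNase Z gene ELAC2 and CPSF7, which like CPSF6 and NUDT21 is also in the list of paraspeckle proteins. XRN2 and CPSF1, the most abundant of the list, did not pass (limma adjusted p = 0.174 and 0.619). The count of higher genes depended on single libraries: it was 0 without wild-type replicate 1, 1 without wild-type replicate 2 or shENO1 replicate 1, and 4 without shENO1 replicate 2 or shENO1 replicate 3. Over all genes, 147, 214, 288, 681 and 732 were called higher in the order of these settings, against 1007 with all libraries.

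**Figure D5:**
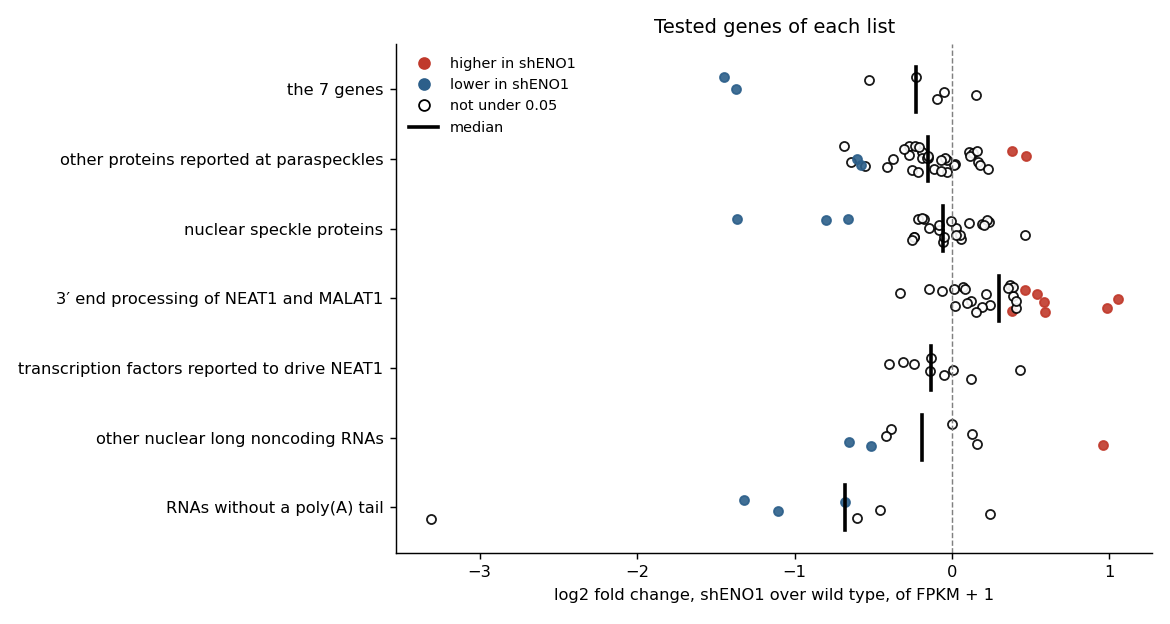
Log2 fold change of FPKM + 1, shENO1 over wild type (horizontal axis), of the 7 genes and of the tested genes of 6 lists; each point is a gene, placed at random within its row. Points are filled red where called higher, blue where called lower and open otherwise, and the bars give the medians. The median is 0.30 for 3′ end processing and between -0.68 and -0.06 for the other lists drawn.

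None of 9 tested transcription factors reported to drive NEAT1 was called by limma (0 higher and 2 lower at an unadjusted p under 0.05; 0 higher and 1 lower by limma-voom), a count too small to set against the 7.86% higher and 6.46% lower of all genes, and their median log2 fold change was -0.13. CEBPB, a myeloid factor and the most abundant of them, was at 77.7 ± 19.9 FPKM in shENO1 cells and 86.3 ± 27.2 FPKM in wild-type cells (SD, n = 3 each, limma adjusted p = 0.766), and ATF2 at 29.8 ± 4.57 FPKM in shENO1 cells and 35.6 ± 6.40 FPKM in wild-type cells (limma adjusted p = 0.353).

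Of 18 other nuclear or widely studied long noncoding RNAs, 15 were matched and 8 tested, and 1 was called higher (12.5%, against 7.86% of all genes) and 2 lower (25%, against 6.46%), with a median log2 fold change of -0.19. The 8 genes are too few to set against these shares. MIR17HG and LINC-PINT each averaged under 1 FPKM in 1 group, and passed the filter only through the other group. MIR17HG, the host gene of the miR-17-92 cluster, was at 1.90, 2.32 and 1.85 FPKM in shENO1 libraries 1 to 3, against 0.42, 0.77 and 0.48 FPKM in wild-type libraries 1 to 3 (log2 fold change 0.96, limma adjusted p = 0.0148). CRNDE and LINC-PINT fell by 0.51 and 0.65 on the log2 scale (limma adjusted p = 0.0171 and 0.0340). LINC-PINT has several rows of that symbol, and the one with the highest mean was used. It was at 0.568 ± 0.0323 FPKM in shENO1 cells and 1.47 ± 0.191 FPKM in wild-type cells, so its value is uncertain. NORAD, a cytoplasmic RNA that binds Pumilio proteins and the most abundant of the list, was at 82.9, 85.6 and 92.4 FPKM in shENO1 libraries 1 to 3, against 126, 126 and 101 FPKM in wild-type libraries 1 to 3 (-0.42, limma adjusted p = 0.0677). It thus had the lower wild-type replicate 3 of NEAT1 and MALAT1, but missed the threshold. OIP5-AS1 was at 37.1 ± 2.97 FPKM in shENO1 cells and 37.0 ± 1.42 FPKM in wild-type cells (limma adjusted p = 0.994). The count of lower genes was 0 without shENO1 replicate 1, wild-type replicate 1 or wild-type replicate 2 and 1 without shENO1 replicate 2 or shENO1 replicate 3, and MIR17HG was not called without shENO1 replicate 1 or wild-type replicate 1. Over all genes, 266, 134, 159, 533 and 748 were called lower in the order of the settings for lower genes, against 828 with all libraries. Without shENO1 replicate 1 and wild-type replicate 1, 288 and 147 of all genes were called higher, against 1007.

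The labels do not say how RNA was selected for the libraries, and the mature MALAT1 and the long NEAT1 have no poly(A) tail. Other genes listed for RNAs without that tail were therefore read beside them. Whether the transcripts counted here lacked it cannot be told from gene-level values. Of 26 listed, 8 were at 0 in all libraries and 7 were tested, of which 3 were lower (42.9%, against 6.46% of all genes) and 0 higher (0 at an unadjusted p under 0.05 and 0 by limma-voom), with a median of -0.68. The 7 genes tested are too few to set against that share. The 3 lower genes were histone genes, while RN7SK, RMRP, RPPH1 and SCARNA2 were among those at 0. HIST1H1C was at 4.70, 3.59 and 6.28 FPKM in shENO1 libraries 1 to 3, against 15.5, 13.9 and 11.1 FPKM in wild-type libraries 1 to 3 (log2 fold change -1.32, limma adjusted p = 0.0111). HIST2H2BE was at 2.14, 2.67 and 2.19 FPKM in shENO1 libraries 1 to 3, against 5.83, 6.62 and 6.02 FPKM in wild-type libraries 1 to 3 (-1.10, limma adjusted p = 0.00530). Both were thus lower in each shENO1 library, and HIST1H2AC fell by 0.68 from a low level (limma adjusted p = 0.0363). HIST1H2AC averaged 0.558 FPKM in shENO1 cells, and passed the filter only through its wild-type values. RN7SL2, the RNA of the signal recognition particle, whose near-identical copies can split its reads, ran from 3.29 to 813 FPKM in shENO1 cells and from 16.1 to 3689 FPKM in wild-type cells, with shENO1 replicates 1 and 2 and wild-type replicate 3 at the low end (limma adjusted p = 0.414). The part of these RNAs in the NEAT1 and MALAT1 values was not tested. The count of lower genes was 1 without wild-type replicate 1 or wild-type replicate 2. Over all genes, 134 and 159 were called lower in these settings, against 828 with all libraries.

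The genes whose levels were most like those of NEAT1 over the 6 libraries, among 7328 genes averaging 5 FPKM or more, were DCAF5, CLN8, BABAM1, PSCA and NORAD (Pearson r of log2(FPKM + 1) between 0.996 and 0.997). For MALAT1, UFD1, AUH, CXXC1 and TBC1D20 were among the closest (r between 0.993 and 0.994). NEAT1 and MALAT1 had r = 0.975 with each other, which placed MALAT1 58th for NEAT1 and NEAT1 82nd for MALAT1. These coefficients describe 6 libraries in 2 separate groups, so each takes in the difference between the groups as well as the spread within them. After the group means had been subtracted, NEAT1 and MALAT1 had r = 0.939, with wild-type replicate 3 the lowest of its group in both. That placed MALAT1 122nd for NEAT1 and NEAT1 61st for MALAT1. The closest genes were then MAP3K8, BABAM1, MICE, SIRT7 and MLKL for NEAT1, and AC087276.1, AL390728.4, NIF3L1, AL442125.2 and HNMT for MALAT1. They head a ranking of 7328 genes on 6 libraries, and whether chance alone gives coefficients this high was not tested. NONO, at r = 0.801 with NEAT1 and 0.908 with MALAT1, was the most like them of the 5 protein genes over the 6 libraries, and had r = -0.439 and -0.180 once group means were subtracted.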

How the data were processed

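RNA of 6 U937 libraries (3 shENO1, 3 wild type) was made into libraries with a TruSeq RNA kit from Illumina, per the labels. The deposited table gives 1 FPKM value per gene and library. The submitters' processing notes name STAR, Cufflinks and Cuffnorm and the build hg38 (GRCh38); versions, strand settings and poly(A) selection are not given in the sources used here. Reads per gene were recovered from FPKM and the gene length in bases that the authors deposited beside it: in each library, the product was a whole number of equal steps for 100% of values above 0 (tolerance 0.001). These reads gave the depths and shares. Coordinates are those of the table, counted from 1.

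A gene entered the test at a mean FPKM of 1 or more. log2(FPKM + 1) was fitted with limma 3.58.1 in R 4.3.3 as a linear model of both groups, with a trended empirical Bayes prior, Benjamini-Hochberg adjustment over all 12809 genes and a threshold of 0.05. Log2 fold changes are shENO1 over wild type and understate low genes, whereas folds in plain numbers divide mean FPKM. SDs are over 3 libraries, and intervals are 95% intervals from the moderated SE. Exact permutation tests were run in scipy 1.17.1. Alternatives covered pseudocount, filter, scaling, prior, limma-voom on recovered reads, gene length, left-out libraries and the replicate number as a block; the numbers were not found to pair libraries. The test was tried on simulated reads with known changes.

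The 7 genes and the gene lists were chosen with earlier results of these data known. From each list the text names the called genes, up to the 4 with the largest change, and the 2 with the highest mean. FCGR1A, CSF1R, LYZ, ELAC2, POP4, FRMD8, RELA, MIR4489, RBM14-RBM4, RN7SK, RMRP, RPPH1 and SCARNA2 were named after their values were seen. TALAM1, the antisense partner of MALAT1, was not matched by symbol, and some genes that the rule takes are not reported here. Sequences are from GENCODE release 29. Plots used matplotlib 3.10.9 and Python 3.11.15.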

Additional observations from a re-analysis of the deposited data

How the results depend on the processing

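MALAT1 stayed lower and past the threshold in limma under every alternative except the replicate number as a block (-1.45, adjusted p = 0.0784), and NEAT1 stayed lower under all of them. NEAT1 lost its call with no filter on FPKM (-1.37, adjusted p = 0.0866) and with the block (-1.37, adjusted p = 0.113). With single libraries left out its log2 fold change ran from -1.72 to -1.19 and its call was lost in 4 of 6 cases. The count of members called lower was 1 with no filter, 0 with the block (limma; 3081 of all genes then had an unadjusted p under 0.05) and 1 to 2 with a library left out. Over all genes, 445 were higher and 381 lower with no filter, 0 and 1 with the block, 1649 and 2033 without both replicates labelled 3, and 147 to 914 and 134 to 775 with a library left out. The replicate numbers did not pair libraries: deviations of same-numbered libraries from their group means correlated at -0.085, -0.334 and -0.459. Those of shENO1 replicate 3 correlated with wild-type replicates 1 and 2 at 0.230 and 0.423. Those of wild-type replicate 3 correlated with shENO1 replicates 1 and 2 at 0.195 and 0.374. The remaining pairs gave -0.193 and -0.199. Without both replicates labelled 3, each group lay on 1 side of this pattern, so group and pattern cannot be told apart there. SFPQ turned to 0.14 without both replicates labelled 3, and ran from -0.19 to 0.051 with a library left out. HNRNPK turned to 0.083 with quantile normalisation and to 0.0028 with libraries scaled on nuclear genes alone, and ran from -0.23 to 0.051 with a library left out; without both replicates labelled 3 it was -0.34. The log2 difference of the NEAT1 to MALAT1 ratio ran from -0.061 to 0.18 with a library left out. The cause of these shifts was not tested. Of the 21 other called genes named from the lists, 12 lost their call with no filter, 21 with the block, and 4 to 19 with a library left out. Values near 1 FPKM, as for POP1, LINC-PINT, MIR17HG and HIST1H2AC, rest on fewer reads than those of the 7 members. POP1, LINC-PINT, MIR17HG, HIST1H2AC and CSF1R passed the filter only through the group in which they were higher.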
